A study of Saccharomyces cerevisiae with 8 samples.

Results

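The synthetic HPRT1 locus, 100735 bp of human X-chromosome DNA between lox sites, was read by CAGE-seq in 2 positions in yeast, on an episome and inside chromosome XI. Its transcription start sites were taken as all peaks, on both strands, that the authors called inside the locus. Overlapping peaks of the same strand were joined over the 4 HPRT1 libraries, which gave 140 sites, out of 7265 such regions in the 8 libraries of the series. Each site is named here by its strand (F for forward, R for reverse) and by its left edge in bp from the left end of the locus, so that F56404 is a forward site starting at base 56404. In the integrated libraries the locus occupied bases 146351 to 247085 of a modified chromosome XI, built on sacCer3, where it took the place of 157 native bases at YKL162C-A.

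The episome strain carried the locus in the vector pLM1110, which has a CEN/ARS origin and LEU2, in BY4741 (his3Δ1 leu2Δ0 met15Δ0 ura3Δ0). The integrated strain was derived from the episome strain, in the same BY4741 background, by installing a URA3 landing pad at YKL162C-A and moving the locus into it with Cre. Each context was represented by 1 strain and 2 replicate cultures from separate colonies, so that p-values measure the spread between cultures of a strain. Cultures were diluted to an OD600 of 0.1 and grown for 6 h at 30 °C to about 0.6, the episome strain in SC-Leu and the integrated strain in YPD. Medium, copy number and genomic context therefore changed together and cannot be told apart.

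CAGE captures the capped 5′ ends of RNA, so a peak marks where RNA polymerase II begins a transcript, and its height follows the amount of capped RNA that starts there. Yeast promoters are short stretches of open, usually A+T-rich DNA, often fire in both directions, and allow the polymerase to scan some distance downstream before it starts, so that several starts can serve the same promoter. HPRT1 encodes the purine salvage enzyme hypoxanthine phosphoribosyltransferase. Most of its locus is intron and flanking DNA that was never selected to work in yeast, and its own promoter is of the CpG-rich housekeeping kind.

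The study placed the Sphis5 coding sequence at 4 of these start sites, at positions 13493, 56401 and 93086 on the forward strand and 56086 on the reverse strand. These positions lie at the upstream edges of F13460, F56404, F93062 and R55807, which recur below, and the sequences at 13493, 56086 and 56401 are shown for that reason. Each run holds 40 bases on either side of the insertion point, reads 5′ to 3′ along the transcribed strand, and was joined from the arms of the study's insertion oligonucleotides. Capitals mark bases at which a library had its dominant start, placed to within about 1 base on the oligonucleotide numbering.
Position 13493, forward (chrXI:159803-159882): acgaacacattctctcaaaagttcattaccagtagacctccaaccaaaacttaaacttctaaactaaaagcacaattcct
Position 56086, reverse (chrXI:202396-202475): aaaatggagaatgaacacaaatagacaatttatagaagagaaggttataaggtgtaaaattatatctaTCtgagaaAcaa
Position 56401, forward (chrXI:202711-202790): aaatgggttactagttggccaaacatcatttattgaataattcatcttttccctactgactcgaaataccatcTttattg
The 3 runs were 65.0% to 73.8% A+T. The run at 56086 held a TATA-type motif (TATAAAA or else TATAAAT or else TATATAA or else TATATAT, which can overlap, on either strand), and so did 13.9% of 108 pieces of 80 bases from other parts of the locus. The 3 starts in capitals at 56086 belonged to episome replicates 1 and 2 and integrated replicate 2, and the one at 56401 to integrated replicate 1.

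The libraries held 7.27 to 8.05 M aligned reads (M, 1000000), 35.6% to 38.7% of them on the forward strand, by an estimate from the peak statistics. Heights are given as reads piled up at the summit per 1000000 aligned reads of the library (RPM), recovered from the deposited fold and p of each peak. The lowest height called was 8.58 to 9.34 RPM on the forward strand and 13.9 to 14.6 RPM on the reverse strand, and weaker sites are not represented. These floors cover counting error only, and CAGE reads without molecular identifiers are not independent molecules. Inside the locus 94 and 93 peaks were called in the episome libraries and 87 and 93 in the integrated libraries. Vector sequence carried 15 and 13 peaks in the episome libraries against 0 and 1 in the integrated libraries, which matches their labels.

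Sites differed widely in how regularly they were called. Of the 140 sites, 43 were called in all 4 libraries, 24 in 3, 27 in 2 and 46 in a single library. Sites called in all 4 libraries had a median height of 196 RPM, against 29.2 RPM for sites called in a single library. Both replicates called 67 of the 109 sites seen in either episome library (61.5%) and 58 of the 110 sites seen in either integrated library (52.7%). The corresponding shares of native regions were 51.5% and 48.8%. Of the 46 single-library sites, 12 and 11 came from episome replicates 1 and 2, and 4 and 19 from integrated replicates 1 and 2.

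**Figure D1:**
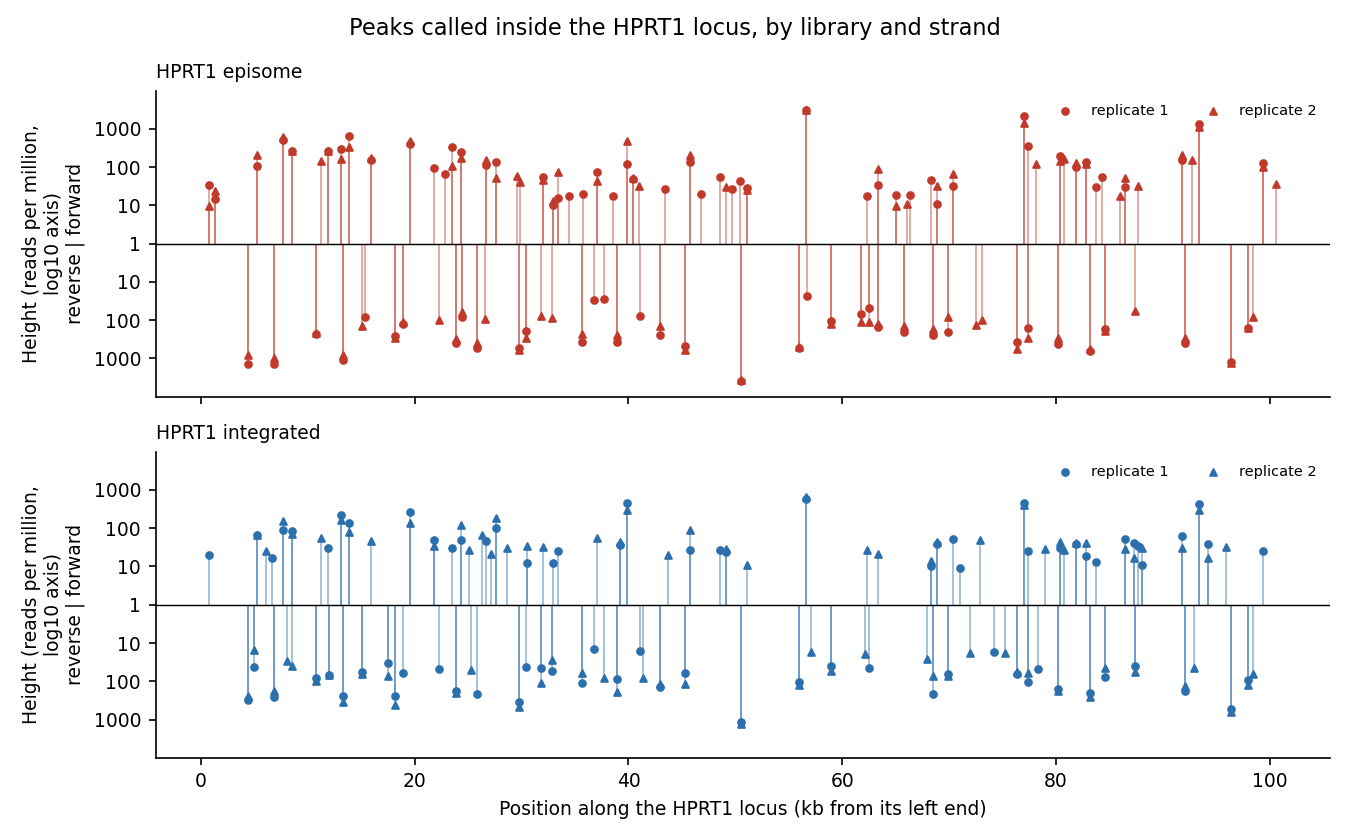
Height of every peak called inside the HPRT1 locus (RPM, log10 axis, forward strand upward and reverse strand downward) against position in kb from the left end, for the episome (top) and integrated (bottom) libraries, with circles for replicate 1 and triangles for replicate 2. The tallest reverse site, R50346, and the tallest forward site, F56404, stood out in both contexts.

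The same few sites dominated the locus in both contexts. Among the 43 sites called in all 4 libraries, 5 of the 6 tallest and 8 of the 10 tallest by mean height were shared. The 6 tallest in each library made up 50.9% to 52.3% of the summed height of the 43 sites in the episome libraries and 43.7% to 45.6% in the integrated libraries. Spearman's rho of heights across the 43 sites was 0.878 between the episome replicates, 0.849 between the integrated replicates and 0.727 to 0.735 between contexts, as a description over sites that share libraries and depth.

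R50346 was the tallest site in all 4 libraries, at 3846 and 3740.3 RPM in the episome and 1145 and 1309 RPM in the integrated libraries. It was called at 50346 to 50737 (chrXI:196696-197087), and its start was the steadiest of the tall sites, between 50638 and 50641 in every library. The height rose in the episome by 1.63 ± 0.17 on the log2 scale (SE, limma, adjusted p = 0.000191).

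F56404, the second tallest, reached 3149.6 and 3063 RPM in the episome and 590.3 and 652 RPM in the integrated libraries. Its episome values were close to each other and far above both integrated values, a rise of 2.32 ± 0.19 on the log2 scale (SE, limma, adjusted p = 2.01e-05), which had the lowest adjusted p of the locus. The reverse site R55807, which starts 414 bp away by mean episome starts and points the other way, stood at 535 and 502 RPM against 102 and 125 RPM. It was 4.60-fold higher in the episome (SE 0.37 on the log2 scale, adjusted p = 0.00305, limma), so that both sides of this divergent pair were higher in the episome.

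The other tall sites followed the same course. F76830 had 2119 and 1423 RPM in the episome and 458 and 407 RPM in the integrated libraries. R96024 had 1231 and 1310.5 RPM against 523 and 622 RPM, the smallest rise among those called (1.16 ± 0.23 on the log2 scale, adjusted p = 0.011, limma). F93062 had 1327 and 1087 RPM against 443 and 304 RPM. F76830 and F93062 passed the test as well, with differences of 2.01 ± 0.25 and 1.71 ± 0.27 (adjusted p = 0.000374 and 0.00223, limma). With 5′ ends joined within 100 bp, the difference at F93062 was 2.55 (adjusted p = 0.0157, limma). R29417 was the exception, ranked 5 in the integrated and 10 in the episome libraries by mean height, with 533 and 605 RPM in the episome and 341 and 459 RPM when integrated. Its difference of 0.52 ± 0.29 on the log2 scale did not pass the test (adjusted p = 0.450, limma), although the episome values lay above the integrated ones.

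F13460, the remaining forward insertion site, had 653 and 331 RPM in the episome and 137 and 78.8 RPM in the integrated libraries, without overlap. It rose by 2.16 ± 0.45 on the log2 scale (adjusted p = 0.015, limma). Its divergent neighbour R13118, whose upstream edge lies 17 bp from the insertion point at 13493, had 1075 and 816 RPM against 244 and 341 RPM and rose by 1.70 ± 0.29 (adjusted p = 0.00384, limma).

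Over the locus as a whole, most sites were taller on the episome. Of the 43 sites tested, 14 were higher in the episome (limma on log2 RPM over 1608 regions, adjusted p under 0.05) and 0 were lower, while 30 were higher and 0 lower at an unadjusted p under 0.05. Among all regions tested, 1.99% were called higher and 1.06% lower in the episome, and 5.85% were higher and 8.52% lower at an unadjusted p under 0.05. The 14 sites were 2.23-fold to 7.53-fold higher, 5 on the forward and 9 on the reverse strand. They were also the tall ones, with a median episome height of 1021 RPM against 209.6 RPM for the 29 that did not pass. The number of called sites was 8 without episome replicate 2, and 0 when the trend of variance with height was left out of the fit. Without that trend 0 of all 1608 regions were called, while the median difference over the 43 sites remained 1.44 and 29 sites were higher at an unadjusted p under 0.05.

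The median difference over the 43 sites was 1.44 on the log2 scale, or 2.72-fold, with quartiles of 0.93 and 1.98. The median over native regions was -0.13. The point estimate was above 0 at 39 sites, and at 36 sites both episome values exceeded both integrated values, as at 16.0% of native regions. At 1 site, F68646, both lay below, as at 26.5% of native regions. Replicates differed by a median of 0.46 between the episome libraries and 0.48 between the integrated libraries on the same scale, so that the typical difference between contexts was larger than that between cultures. In bulk RNA, more copies of the locus per cell and more transcripts per copy cannot be told apart. The study estimated copy number of the episome and the integrated locus from whole-genome sequencing. It corrected episome coverage in other assays for that estimate, but the heights given here were not corrected for copy number.

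**Figure D2:**
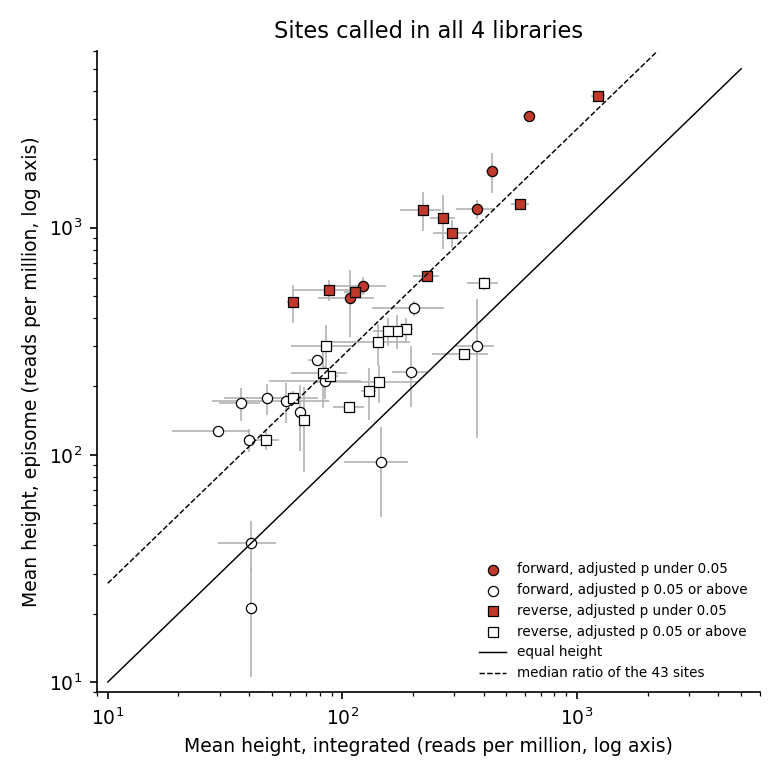
Mean height in the episome against mean height in the integrated libraries (RPM, log axes) for the 43 sites called in all 4 libraries, with grey lines spanning the 2 replicates, circles for forward and squares for reverse sites, and filled symbols for an adjusted p under 0.05 (limma). Most sites lie along the dashed line of the median ratio, 2.72, and 4 lie below the line of equal height.

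A per-library ratio gave the same size. Among regions called in all 4 libraries, the median site of the locus stood at 2.97 and 2.95 times the median native region in episome replicates 1 and 2, and at 0.968 and 1.10 times in integrated replicates 1 and 2. The difference between contexts was 1.52 on the log2 scale (p = 0.333 by exact permutation, two-sided; with 2 libraries on each side no smaller p is possible, and 0.05 cannot be reached). The local background, taken from a 10 kb window that holds the peak itself, was higher as well. At several sites the integrated background sat at its lower limit, the library-wide level, as at R45133 (mean 10.2 RPM) and F45605 (mean 6.43 RPM). Ratios of background may be compressed for that reason. For the 43 sites the background had a median of 34.3 and 33.8 RPM in the episome and 12.8 and 10.7 RPM in the integrated libraries, a median ratio of 2.60. The median fold of a peak over this background therefore hardly moved, at 10.9 and 8.89 against 9.82 and 11.6. Single sites moved both ways, as R45133 (mean fold 24.7 in the episome, 8.47 integrated) and F27444 (3.98 and 16.5). In the limma test on fold, 0 of the 43 sites passed in either direction, against 3 higher and 2 lower at an unadjusted p under 0.05. That fit called 0 of all 1608 regions, with 81 higher and 74 lower at an unadjusted p under 0.05. The fold has a ceiling near 50, set by the 10 kb window in which a peak counts as its own background, and R50346 and F56404 stood between 46.9 and 49.5 in all 4 libraries.

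The second question was which sites departed from this general difference. Heights were set relative to the median of the 43 sites in each library, and native heights relative to the native median. By limma, 0 sites then differed in either direction at an adjusted p under 0.05, and 4 were relatively higher and 6 relatively lower at an unadjusted p under 0.05. Among all regions, 1.24% were called higher and 0.373% lower, against 5.97% and 5.85% at an unadjusted p under 0.05. The differences ran from -2.54 to 1.53, and 34 of 43 lay within 1 of 0. The lowest adjusted p was 0.0745, for F56404. Leaving out integrated replicate 1 gave 2 sites called relatively higher, and leaving out integrated replicate 2 gave 1 called relatively lower.

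The 5 sites with the largest positive relative difference were R75842, R45133, R6454, F56404 and F7405. R75842, a broad reverse site, had 382 and 557 RPM in the episome but only 64.8 and 57.8 RPM when integrated. It ranked 15th in the episome and 35th in the integrated libraries, and its relative difference was 1.53 ± 0.54 (adjusted p = 0.274, limma). R45133 had 475 and 590.1 RPM against 60.8 and 115 RPM, a relative difference of 1.28 ± 0.50 (adjusted p = 0.332, limma). R6454 had 1431 and 962 RPM against 262 and 177 RPM, and F7405 had 504 and 603 RPM against 91.5 and 154 RPM.

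The 5 sites with the largest negative relative difference were F68646, F27444, F39666, R17760 and F86171, whose mean integrated heights were close to or above their episome heights. F68646 had 10.6 and 31.8 RPM in the episome and 39.0 and 42.8 RPM in the integrated libraries (relative difference -2.54 ± 0.73, adjusted p = 0.168, limma). F27444 had 132 and 53.2 RPM against 102 and 189 RPM, so its contexts overlapped. F39666 had 118 and 486 RPM against 443 and 303 RPM, and its episome replicates were farther apart than its contexts. R17760 had 265 and 291 RPM against 241 and 419 RPM, and F86171 had 30.6 and 51.0 RPM against 51.9 and 29.5 RPM. The height differences of these 5 sites lay between -1.16 and 0.01 on the log2 scale and did not pass the test, with adjusted p from 0.542 to 0.994 (limma). The sign at F39666 turned positive without episome replicate 1 (0.41), and that at R17760 without integrated replicate 2 (0.20).

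The start of F27444 lies at the edge of sequence given in the study's segment table. The run below is shown for it, with the dominant start of episome replicate 2 in capitals, and the starts of the other 3 libraries fell 8 to 13 bp past its last base. The capital, at 27445, was placed 100 bp upstream of the summit. The called 5′ edge of that peak was 27496, downstream of the capital, so this base is an approximate placement.
F27444, forward (chrXI:173735-173807): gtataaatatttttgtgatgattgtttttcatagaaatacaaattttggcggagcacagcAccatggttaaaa
F86171, whose starts lay at 86184 and 86551 in the episome and at 86339 and 86613 in the integrated libraries, is shown around the starts of episome replicate 2 (first capital) and integrated replicate 2 (second capital).
F86171, forward (chrXI:232861-233003): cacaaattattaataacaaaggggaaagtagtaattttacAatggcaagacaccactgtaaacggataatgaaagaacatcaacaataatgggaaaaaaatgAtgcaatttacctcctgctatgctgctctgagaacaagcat
The F27444 run held a TATA-type motif and that of F86171 did not, against 12.6% and 24.1% of pieces of those lengths from the segment table.

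**Figure D3:**
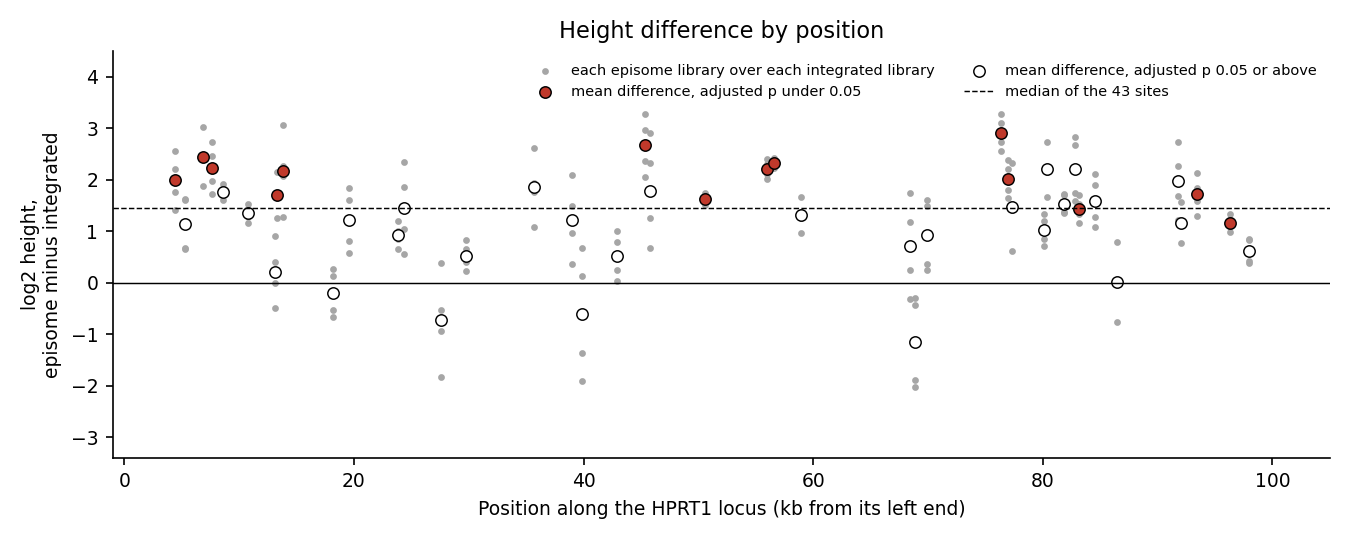
Height difference between contexts (log2 RPM, episome minus integrated) of the 43 sites against position in kb from the left end of the locus, with large circles for the mean, filled where the adjusted p was under 0.05 (limma), and small grey points for each episome library over each integrated library. Positive values run the length of the locus, and the 4 negative means belong to R17760, F27444, F39666 and F68646.

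By position, positive differences were found from end to end. In windows of 10 kb, each holding 3 to 7 of the 43 sites, the median difference ran from 0.71 at 60 to 70 kb and 0.72 at 20 to 30 kb to 1.98 at 0 to 10 kb and 2.01 at 70 to 80 kb. These medians cover only sites called in all 4 libraries. The window from 60 to 70 kb, with 3 of them, also held 4 of the 7 sites called only in the episome, and 13 and 10 peaks in the episome libraries against 6 and 7 in the integrated libraries. Forward sites had a median difference of 1.71 (n = 19, from -1.16 to 2.32) and reverse sites one of 1.33 (n = 24, from -0.19 to 2.91). By mean episome starts, 9 pairs of a reverse and a forward site lay within 500 bp of each other and pointed apart. By integrated starts some pairs were wider than 500 bp, as R6454 (7058 in both libraries) and F7405 (7639 and 7640). In 4 of the 9 pairs both members passed the test as higher in the episome, where 14 of all 43 sites passed. The point estimates of both members were above 0 in 8 of the 9, where 39 of all 43 sites were above 0, and in those 8 the members of a pair differed by 0.12 (R55807 and F56404) to 1.18 (R79866 and F80101). The exception was R68168 and F68646, at 0.71 and -1.16.

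The outermost sites of the locus were low and irregularly called. The leftmost site, F590, had 33.2 and 9.62 RPM in the episome and 19.5 RPM in integrated replicate 1, and was not called in integrated replicate 2. The rightmost, F100516, was called in episome replicate 2 alone, at 36.7 RPM. The outermost sites called in all 4 libraries were R4272, with 1393 and 801 RPM against 302 and 236 RPM, and R97731, with 164 and 161 RPM against 91.1 and 123 RPM. R4272 rose by 1.98 ± 0.31 (adjusted p = 0.00223, limma), whereas the difference of 0.62 ± 0.49 at R97731 did not pass (adjusted p = 0.632).

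The third question was whether sites were gained or lost outright. In all, 7 sites were called in both episome libraries and neither integrated library (5.00% of the 140 sites, where 2.49% of native regions had this pattern), and 8 in both integrated libraries and neither episome library (5.71%, against 3.05% of native regions). For each, the lowest height that could have been called in the other context was estimated from the background at the nearest called peak of the same strand. That peak lay up to 3.8 kb away (F1245, integrated replicate 2), so the estimated floor is approximate. This floor was 9.29 to 16.4 RPM in the integrated libraries but 9.45 to 89.1 RPM in the episome libraries, since the background was higher there.

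The tallest of these sites were episome-only, although the episome-only F1245 and F64854 were low. R65600 had 203 and 143 RPM in episome replicates 1 and 2, R63091 had 150 and 123 RPM, and R61610 had 69.0 and 109 RPM, while the floor in the integrated libraries was 13.9 and 14.0 RPM at each. These 3 reverse sites lie between 61610 and 65969, in a stretch that also held the weak episome-only site F64854 (18.1 and 9.35 RPM). R24282 had 85.1 and 61.3 RPM against floors of 16.4 and 14.0 RPM, and F40233 had 48.1 and 51.8 RPM against 14.6 and 11.9 RPM. F1245 had 14.3 and 23.8 RPM. All 7 exceeded the floors of both integrated libraries in both replicates, F64854 only just, with a lower height of 9.35 RPM against a higher floor of 9.34 RPM. If divided by the median ratio of 2.72, 5 of the 7 would still have exceeded them, and F1245 and F64854 would not.

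The integrated-only sites were low. The tallest, R11907, had 70.2 and 68.1 RPM in integrated replicates 1 and 2 where the episome floors were 89.1 and 70.1 RPM, and R17407 had 32.4 and 72.9 RPM where they were 48.5 and 46.5 RPM. R4710, F94130, F30409 and F87893 also had at least 1 value under an episome floor. F39111 was the clearest of the 8, with 36.1 and 42.6 RPM above floors of 9.45 and 18.0 RPM, and F87087 had 42.2 and 17.0 RPM against 15.5 and 16.9 RPM. For 6 of the 8, a site of the same height in the episome could thus have gone uncalled. If multiplied by the median ratio of 2.72, however, 6 of the 8 would have exceeded both episome floors, and R4710 and F94130 would not. With a minimum fold of 4 on all peaks the counts were 8 episome-only and 1 integrated-only.

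**Figure D4:**
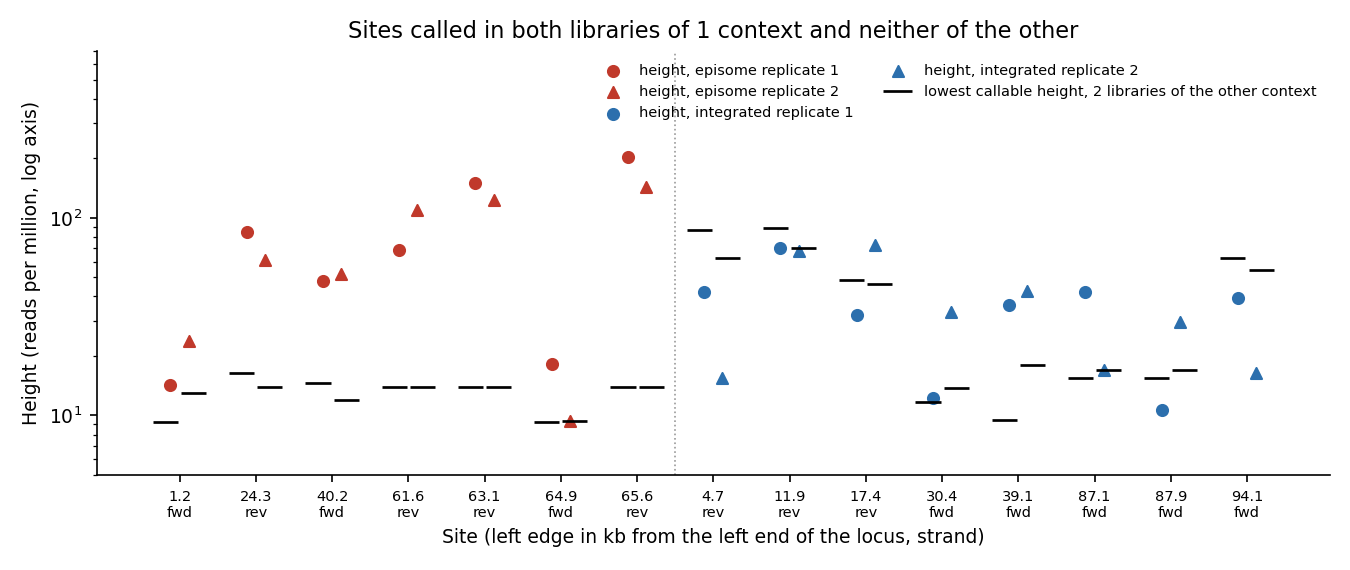
Height (RPM, log axis) of the 7 sites called only in the episome (red) and the 8 called only in the integrated libraries (blue), with circles for replicate 1 and triangles for replicate 2, and black bars for the lowest callable height in the 2 libraries of the other context. All red points lie above the bars, F64854 only just, and 6 of the 8 blue sites have a value under a bar.

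The fourth question was whether starts moved. The dominant start of a site was placed 100 bp upstream of the summit of its tallest peak, since the peak caller extended each read to 200 bp. Starts placed this way are approximate and can lie upstream of the called 5′ edge of the peak. At F91690 the episome starts were 91654 and 91658, while the episome edges were 91706 and 91690 and the integrated edges 91706 and 91740. The distances below compare these summit-based starts, not the called edges. Over the 43 sites, the median distance between the starts of 2 libraries was 18 bp for the episome replicates and 23 bp for the integrated replicates, but 48 to 55 bp for the 4 pairs across contexts (mean 52.0 bp). Native regions called in all 4 libraries gave 13.5 bp within and 14.0 bp across contexts. At 12 of the 43 sites (27.9%) the gap between contexts was wider than the distance between either pair of replicates, as at 8.69% of native regions. The gap was over 50 bp at 7 of these sites (16.3%), as at 1.28% of native regions. Of the 12, 8 started farther upstream in the episome and 4 farther downstream.

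The 3 largest shifts were at F93062, F8056 and F7405. F93062 started by summit at 93151 and 93095 in the episome and at 93460 and 93469 in the integrated libraries. These summit-based starts were at least 309 bp apart between contexts, with the episome upstream. F7405 started by summit at 7492 and 7482 in the episome and at 7639 and 7640 in the integrated libraries, at least 147 bp apart, again with the episome upstream. At both sites the replicates lay close together, within 56 bp. At F8056 the integrated replicates started 339 bp apart, at 8682 and 8343, so the mean shift of 204.5 bp is not larger than the spread of replicates. R29417, which kept more of its height in the chromosome than other tall sites, started by summit at 30038 and 30032 in the episome and at 29896 and 29910 in the integrated libraries. Its called 5′ edges were 30102 and 30054 in the episome and 29990 and 30127 in the integrated libraries, so by edge the contexts overlapped.

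The sequences below are shown because they hold summit-based starts of 1 or both contexts, which are in capitals. The run at F93062 covers the starts of the integrated libraries only. F45605 and F82536 were chosen after their values were seen, as sites with summit-based starts apart between contexts for which the segment table gives sequence over all 4 starts.
F93062, forward (chrXI:239760-239869): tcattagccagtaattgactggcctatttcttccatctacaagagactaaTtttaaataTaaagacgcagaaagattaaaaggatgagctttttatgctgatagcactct
F45605, forward (chrXI:191924-192070): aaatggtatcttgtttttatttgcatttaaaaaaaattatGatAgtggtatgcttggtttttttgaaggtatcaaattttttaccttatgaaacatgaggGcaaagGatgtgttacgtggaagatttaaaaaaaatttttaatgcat
F82536, forward (chrXI:228928-229068): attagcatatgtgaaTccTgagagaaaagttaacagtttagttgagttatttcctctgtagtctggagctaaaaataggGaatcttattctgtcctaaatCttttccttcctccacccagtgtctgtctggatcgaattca
In both F45605 and F82536 the first pair of capitals belonged to the integrated libraries and the second pair to the episome libraries. F45605 started at 45617 and 45614 when integrated and at 45680 and 45674 in the episome, and had 27.7 and 87.5 RPM against 139 and 207 RPM. F82536 started by summit at 82593 and 82596 when integrated and at 82657 and 82678 in the episome. Its heights were 18.8 and 40.4 RPM when integrated and 134 and 121 RPM in the episome. Its called 5′ edge in integrated replicate 1 was 82656, downstream of the capital for that library. The edge in integrated replicate 2 lay upstream of both episome edges, 82583 and 82644, so by edge the contexts overlapped. At F45605 the called edges of all 4 libraries lay close together, as 45611 in episome replicate 2 and 45613 in integrated replicate 2. None of these 3 runs held a TATA-type motif, whereas 16.0%, 24.1% and 22.2% of pieces of 110, 147 and 141 bases held one.

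**Figure D5:**
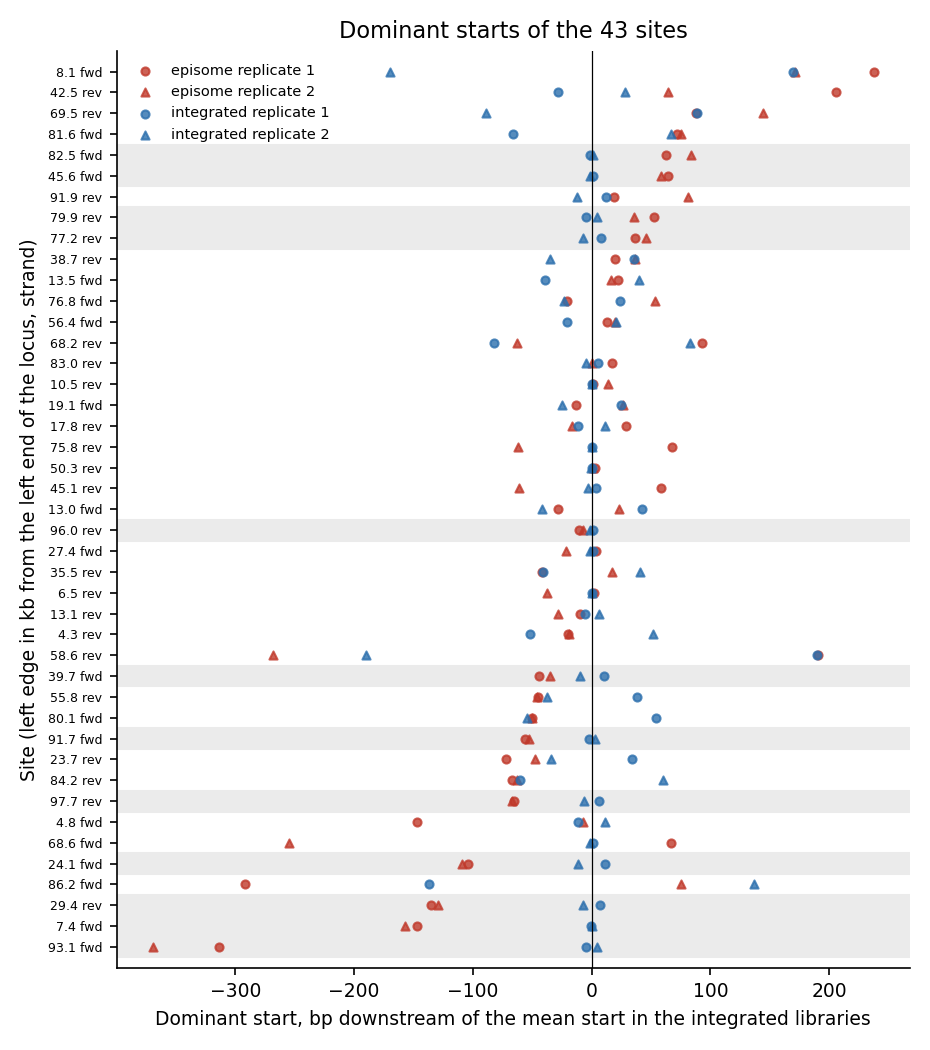
Dominant start of each of the 43 sites in the 4 libraries, in bp downstream of the mean start in the integrated libraries (x axis), for each site by its left edge in kb (y axis), with red for the episome, blue for integrated, circles for replicate 1 and triangles for replicate 2. Grey bands mark the 12 sites at which the contexts were farther apart than either pair of replicates, with F93062 at the bottom.

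Long stretches of the locus had no called peak in either context. The longest interval without a peak on either strand in any of the 4 libraries was 4463 bp, from 51344 to 55806, between the 2 tallest sites of the locus. The next were 3488 bp from 88202 to 91689 and 2809 bp from 1463 to 4271. Sequence was at hand for 27 windows of 399 bases along the locus, of which 12 held a dominant start in at least 1 library. Their median G+C was 42.4% with a start and 40.1% without. The window from 30719 to 31117 differed from the rest in its 69.9% G+C and 40 CpG dinucleotides, against at most 13 in any other, a composition typical of CpG-rich mammalian promoters. No peak was called there in either context, the nearest ending at 30654 and beginning at 31718. A stretch of it is shown, with 1 of the 4 GC-box cores of the window (GGGCGG on either strand, present in 3 of the 27 windows) in capitals.
Locus 30914 to 30943, forward (chrXI:177264-177293): gtaggcgcgcGGGCGGggccgggggcgggg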

How the data were processed

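CAGE-seq 5′ reads were aligned by the authors with Bowtie2 2.2.9 to sacCer3 with the locus as a separate sequence or inserted in chromosome XI, and peaks were called per library and strand with MACS2 2.1.0, without control and keeping duplicates. Of 32 deposited lists, the 16 of the HPRT1 libraries were used. The ratio deposited by the authors is fold enrichment over local background, the deposited −log10 p and −log10 q come from the Poisson test of MACS2, and the deposited score restates −log10 q. Pileup and background were solved from fold and p, with a 200 bp extension and a genome of 12000000 bp (over all lists, of 45253 peaks under 2000 reads, 100% within 0.05 of whole). Depth was 7.27 to 8.05 M reads.

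Locus length came from the shift of native chromosome XI peaks between references. Episome lists were taken on the separate sequence, integrated lists on the modified chromosome. log2 RPM of regions called in 4 libraries was tested with limma 3.58.1 (empirical Bayes with trend, Benjamini-Hochberg over all regions, R 4.3.3), after a check on simulated data. Named sites were the 6 tallest per context, the 5 largest relative differences each way, sites of 1 context, Sphis5 insertion sites, end sites and the 3 largest start shifts. Members, lists and tests were chosen with earlier results of these data known. Sequences come from the study's oligonucleotide and segment tables, assuming a lox site of 34 bp at each end. The sequence at 1 insertion position is not reported here.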

Additional observations from a re-analysis of the deposited data

Results flagged for a closer look

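The integrated libraries should hold no vector, and 1 peak was nevertheless called on vector sequence in integrated replicate 2. It lay on the reverse strand with a height of 19.1 RPM and a fold of 1.85 over background, while integrated replicate 1 had 0 vector peaks and the episome libraries had 15 and 13. It lies outside the locus and enters none of the comparisons above.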

How the results depend on the processing

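The 14 sites higher by height became 0 with fold enrichment in place of height and 0 without the variance trend, fits that called 0 of all 1608 regions, and 8 to 21 when 1 library was left out, and the cause was not tested. The other alternatives gave 13 to 15. Sites lower by height stayed at 0 in every fit run. Relative calls were 0 to 2 higher and 0 to 1 lower when 1 library was left out. The locus-over-native difference of 1.52 became -0.032 with fold enrichment and ran from 1.19 to 1.57 when 1 library was left out. The 7 episome-only sites became 14 with 5′ ends joined within 100 bp, 8 at a minimum fold of 4 and 6 at a common minimum height of 14.6 RPM, and 12 to 20 when 1 library was left out. The 8 integrated-only sites became 1 at a minimum fold of 4, 9 and 6 under the same alternatives, and 10 to 27 when 1 library was left out. The shift between contexts of 52.0 bp became 38.5 bp with 5′ ends within 100 bp and 46.25 bp at a minimum fold of 4, and ran from 47.0 to 55.25 bp when 1 library was left out. Fold enrichment divides by a local background that was itself 2.60-fold higher in the episome, so a difference shared by peaks and background is removed by construction. Among named sites above 0 by height, its differences were below 0, with none passing the test, at R4272 (-0.17), F8056 (-0.050), R29417 (-0.66), R50346 (-0.0094, near the ceiling of 50), F76830 (-0.14), F86171 (-0.82), F93062 (-0.091), R96024 (-0.047) and R97731 (-0.60). When 1 library was left out, the difference changed sign at R17760 (-0.59 to 0.20), F39666 (-1.63 to 0.41) and F86171 (-0.39 to 0.42). Where a replicate was left out, the lone library was assumed to vary like the others.

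Replicates share numbers only: deviations of same-numbered libraries correlated at 0.03 over all regions and -0.05 in the locus, which does not pair them. With the replicate block 13 sites were higher and 0 lower by height, with 0 and 0 by relative height. Heights below the lowest callable level were not represented, which limits the sites of 1 context. In 9 combinations of a named site and an alternative, no value could be had because the site was no longer called in every library.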
